A study of Mus musculus with 15 samples.

Results

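The genes described here are 10 that mark T cells and the lymphocytes lodged in the gut epithelium, named by symbol: Cd3d, Cd3e, Cd3g, Cd4, Cd8a, Gzma, Gzmb, Itgae, Thy1 and Ptprc. Of these, 4 were followed through mouse colon RNA-seq libraries, namely Cd4, Itgae, Thy1 and Ptprc, among 12897 genes with counts, 12370 of them in all 3 count tables. Cd3d, Cd3e, Cd3g, Cd8a, Gzma and Gzmb were not analysed here. The study asked how loss of the transcription factor Irf1 alters the colon before tumours form in a model of colitis-associated cancer. All mice were C57BL/6, either wildtype (B6) or Irf1-/-, which lack a working Irf1 gene in every cell from birth. Treated mice received azoxymethane (AOM, a carcinogen) at 7 mg/kg on day 1, then 2% dextran sulfate sodium (DSS, which injures the colon lining) on days 8 to 11, and distal colons were taken on day 26. There were 5 groups of 3 mice: untreated B6 in control set 1, untreated B6 in control set 2, untreated Irf1-/-, treated B6 and treated Irf1-/-. The labels give no age or sex, and the study's methods put mice at 8 to 10 weeks when AOM was given. Whole tissue was homogenised, so that every level below is a mixture over all cells of the colon wall.

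As background, T cells recognise antigen through a receptor complex that signals by way of the CD3 chains, with CD4 or CD8 as the co-receptor. In the gut, many of them sit between epithelial cells, where the integrin made of the Itgae and Itgb7 chains binds E-cadherin on the neighbouring enterocytes. Their upkeep draws on epithelial signals such as interleukin 15 and butyrophilin-like proteins. Of the 4 genes measured, Ptprc (CD45) is a phosphatase carried by all nucleated blood-derived cells and Thy1 is also made by fibroblasts and neurons. Cd4 is found on helper T cells and some myeloid cells, and Itgae on intraepithelial lymphocytes, some regulatory T cells and some dendritic cells. With the CD3 and CD8 alpha genes not analysed here, the values below are those of the named genes and not of a T cell count. The tissue label was borne out by 9 of 9 colon epithelial markers and 6 of 6 smooth muscle markers, none at 0 in any library.

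Total counts over the genes in all 3 tables ran from 22237032 to 22840011 per library. Levels are given as CPM, the count of a gene relative to its library's total after TMM scaling, and differences as log2 fold change (FC). The count tables hold only genes that passed the authors' filter, with 5.01 CPM or more in at least 3 libraries of a table. Pairs of mice within a group differed by far more than counting error, with a chi-square per degree of freedom of 8.65 to 42.7 over 15 pairs. Xist, an RNA made from the inactive X chromosome of female cells, stood at 25.2 and 5.97 CPM in mice 1 and 2 of treated B6 and at 11.6 CPM in mouse 1 of treated Irf1-/-. The lowest and highest of the 12 other libraries had 321 and 3729 CPM. These 3 libraries are all from treated mice, so results on treatment are also given without them where their call changes.

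Irf1 was checked first against the genotype labels. It measured 161, 155 and 144 CPM in control set 1, 141, 128 and 130 in control set 2, 173, 223 and 227 in treated B6, 79.4, 117 and 87.6 in untreated Irf1-/-, and 108, 123 and 100 in treated Irf1-/-. The 6 Irf1-/- values were all under the 9 B6 values, while reads on the gene remained in all libraries. Over both states Irf1 fell by 0.75 on the log2 scale in Irf1-/- (SE 0.09, edgeR adjusted p = 6.92e-05).

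Ptprc had 79.5, 50.7 and 39.3 CPM in control set 1, 37.7, 55.9 and 26.7 in control set 2, 50.0, 66.5 and 60.7 in untreated Irf1-/-, 42.1, 68.7 and 49.8 in treated B6, and 91.5, 91.4 and 62.5 in treated Irf1-/-. Mice 1 and 2 of treated Irf1-/- were the highest of all 15, yet a single untreated B6 mouse came close, and the untreated B6 mice alone spanned most of the range. In CPM the groups ran from control set 2 (40.1 ± 14.7, SD, n = 3) through treated B6 (53.5 ± 13.7), control set 1 (56.5 ± 20.7) and untreated Irf1-/- (59.1 ± 8.33) to treated Irf1-/- (81.8 ± 16.7). Each neighbouring pair in that order overlapped, and only the last step, from untreated to treated Irf1-/-, was larger than the SD of either group. Treated Irf1-/- against treated B6 gave a log2 FC of 0.60 (SE 0.20, edgeR adjusted p = 0.133). The Irf1-/- response to AOM/DSS was 0.47 (SE 0.16, adjusted p = 0.146) and that of B6 was -0.07 (SE 0.25, adjusted p = 0.872), with a difference between the responses of 0.55 (SE 0.34, adjusted p = 0.433). None of these passed the threshold used throughout, which asks for a 1.5-fold difference or more and, over all genes, for an adjusted p below 0.01. The choice of untreated B6 mice moved this gene: against control set 2 the B6 response was 0.43 and the difference between responses was 0.05. Against control set 1, with 1 library left out at a time, the B6 response ranged from -0.29 to 0.27. The difference then ranged from 0.21 to 0.77. In whole tissue, fewer cells of a type and less RNA per cell cannot be told apart, here or for any gene below.

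Cd4 measured 7.97, 8.77 and 5.41 CPM in control set 1, 6.41, 5.42 and 3.97 in control set 2, 6.49, 9.70 and 7.81 in untreated Irf1-/-, 6.24, 13.1 and 10.98 in treated B6, and 15.3, 16.4 and 13.0 in treated Irf1-/-. The treated Irf1-/- mice were all above every untreated mouse of either genotype, whereas mouse 1 of treated B6 lay within the untreated range. Raw counts ran from 89 to 368. Group means in CPM went up in the order control set 2 (5.27 ± 1.23), control set 1 (7.38 ± 1.75), untreated Irf1-/- (7.999 ± 1.61), treated B6 (10.1 ± 3.51) and treated Irf1-/- (14.9 ± 1.73). All neighbours in this order overlapped, and the steps between control sets and between the treated groups exceeded the SD of either neighbour. Over both genotypes, Cd4 rose with AOM/DSS by a log2 FC of 0.79 (SE 0.17, edgeR adjusted p = 0.00354). The response was 0.90 in Irf1-/- (SE 0.17, adjusted p = 0.0343) and 0.46 in B6 (SE 0.28, adjusted p = 0.3001), and the difference between the responses was 0.44 (SE 0.35, adjusted p = 0.557). Against control set 2 the B6 response was 0.95 (adjusted p = 0.0491) and the difference turned to -0.044 (adjusted p = 0.974), so which genotype responded more depended on the control set. Against control set 1, with 1 library left out at a time, the B6 response ranged from 0.23 to 0.71. The difference then ranged from 0.19 to 0.67. By genotype over both states Cd4 was 0.46 higher in Irf1-/- (SE 0.17, adjusted p = 0.0899), short of the threshold. The call over both genotypes held without the 3 libraries low in Xist (0.85, adjusted p = 0.00624), a fit in which the lone treated B6 mouse is assumed to vary like the others. It was lost with control set 1 as the only untreated B6 group (0.67, adjusted p = 0.0224) and with log2 Xist as a covariate (0.76, adjusted p = 0.0271). It was also lost, through the adjusted p, without mouse 1 (0.73, adjusted p = 0.0125) or mouse 3 (0.79, adjusted p = 0.0110) of untreated Irf1-/- or mouse 3 of treated B6 (0.77, adjusted p = 0.0110).

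Thy1 gave 9.51, 12.5 and 9.18 CPM in control set 1, 11.3, 13.4 and 11.7 in control set 2, 11.3, 13.3 and 13.3 in untreated Irf1-/-, 12.2, 12.4 and 14.5 in treated B6, and 15.4, 13.6 and 17.2 in treated Irf1-/-. The range was narrow, and all treated Irf1-/- mice were above all untreated mice of both genotypes. Means went from control set 1 (10.4 ± 1.81 CPM) through control set 2 (12.1 ± 1.14), untreated Irf1-/- (12.7 ± 1.14) and treated B6 (13.0 ± 1.25) to treated Irf1-/- (15.4 ± 1.78). Neighbouring groups overlapped, and only the step between the treated groups exceeded either SD. The AOM/DSS difference over both genotypes was 0.25 (SE 0.09, edgeR adjusted p = 0.0567), with both control sets in the fit. The separate responses were 0.29 in Irf1-/- (SE 0.13, adjusted p = 0.268) and, in B6, 0.34 against control set 1 (SE 0.16, adjusted p = 0.189) but 0.12 against control set 2 (adjusted p = 0.569).

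Itgae, the alpha chain of the integrin that holds lymphocytes to the epithelium, had 10.7, 8.15 and 7.23 CPM in control set 1, 6.82, 9.06 and 7.90 in control set 2, 7.02, 7.61 and 6.399 in untreated Irf1-/-, 8.83, 10.3 and 10.7 in treated B6, and 8.33, 8.18 and 5.89 in treated Irf1-/-. Its order of groups differed from that of the other 3 genes, with both Irf1-/- groups lowest. Means ran from untreated Irf1-/- (7.01 ± 0.605 CPM) through treated Irf1-/- (7.47 ± 1.37), control set 2 (7.93 ± 1.12) and control set 1 (8.71 ± 1.82) to treated B6 (9.94 ± 0.989), and no step between neighbours exceeded the larger SD. After treatment all 3 Irf1-/- mice were below all 3 B6 mice, with a log2 FC of -0.43 (SE 0.18, edgeR adjusted p = 0.208). The genotype difference over both states was -0.33 (SE 0.12, adjusted p = 0.0806) and the AOM/DSS difference over both genotypes 0.18 (SE 0.11, adjusted p = 0.274).

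Per kilobase of transcript, the mean level over the 15 libraries was 10.1 CPM for Ptprc, 7.33 for Thy1, 2.94 for Cd4 and 2.14 for Itgae. Spread over all libraries went in another order, with a coefficient of variation of 41.9% for Cd4, 32.8% for Ptprc, 18.3% for Itgae and 16.3% for Thy1. Raw counts of the other 3 genes ran from 132 to 245 for Itgae, 207 to 385 for Thy1 and 598 to 2075 for Ptprc.

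**Figure D1:**
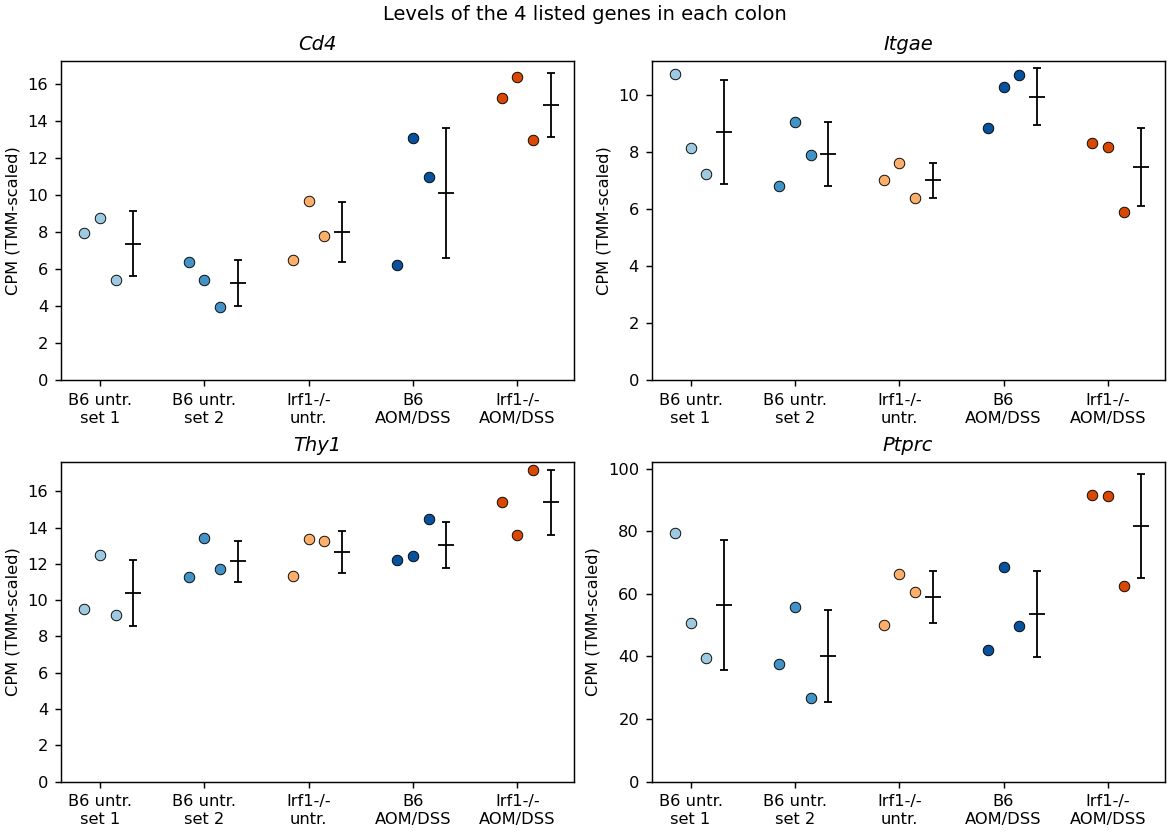
Level of Cd4, Itgae, Thy1 and Ptprc in each colon (CPM after TMM scaling, vertical axes from 0), with 1 point per mouse by group and the group mean ± SD (n = 3) to its right. For Cd4 the 3 treated Irf1-/- mice sit between 13.0 and 16.4 CPM, above every untreated mouse, and for Itgae they sit below every treated B6 mouse.

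Read by comparison, AOM/DSS against untreated over both genotypes asks what treatment did on average, with all 15 libraries. Here edgeR put 1 of the 4 genes past the threshold, Cd4, against 1.64% of all 12370 genes tested, and 2 of the 4 had an unadjusted p under 0.05, as did 38.4% of all genes. DESeq2 also called 1. All 4 log2 FCs were positive, with a median of 0.28 beside -0.00062 over all genes. The comparison of Irf1-/- with B6 over both states gave 0 of 4 by edgeR and 0 by DESeq2, where edgeR called 0.889% of all genes. All 4 had an unadjusted p under 0.05, as did 27% of all genes. The shares of all genes given here, called by edgeR and at that p, are also the background for such counts of the lists below. The 4 genes and the lists were chosen with earlier results of these data known. A count beside a share is thus a description and not a test. Counts by DESeq2 and the exact test, here and below, have no share of all genes called by that tool beside them. They are thus not set against a background. Cd4, Thy1 and Ptprc were higher and Itgae lower in Irf1-/-, with a median of 0.33 beside 0.0078 over all genes.

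The separate responses gave fewer calls among all genes. In Irf1-/-, treated against untreated, edgeR called 0 of the 4 (0.252% of all genes), and 3 had an unadjusted p under 0.05, beside 18.6% of all genes. DESeq2 called 1 and the edgeR exact test 1, both times Cd4. The share of all genes called by these 2 tools is not given, so their 1 of 4 has no background here. Cd4 and Thy1, or 2 of 4, did not overlap between the groups, where 25.1% of all genes did not, and the median was 0.38 beside 0.0068. In B6, edgeR, DESeq2 and the exact test each called 0 (0.0475% of all genes by edgeR), 0 had an unadjusted p under 0.05 (29.5% of all genes), and 0 of 4 were free of overlap against 34.5% of all genes. The B6 median was 0.27 beside 0.012. For the difference between the responses edgeR and DESeq2 called 0 (0.016% of all genes by edgeR) and 0 had an unadjusted p under 0.05 (16.9% of all genes), with a median of 0.20 beside 0.011. On simulated data, with the same spread for all genes, this comparison recovered fewer of the changes put in than the others tried. The change was put in 1 group and was larger there for AOM/DSS over both genotypes. That ranking thus reflects the settings of the simulation and not these data.

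Between genotypes within a state, the same tools called 0 of the 4 in each case. Treated Irf1-/- against treated B6 had 0 by edgeR (0.385% of all genes), 0 by DESeq2 and 0 by the exact test, 2 at an unadjusted p under 0.05 (Itgae and Ptprc, beside 22% of all genes), and 1 free of overlap, Itgae, where 27.5% of all genes were. The median was 0.38 beside -0.0084. Untreated Irf1-/- against control set 2 had 0 by each tool (0.405% of all genes by edgeR), 2 at an unadjusted p under 0.05 (Cd4 and Ptprc, beside 10.4% of all genes), and 1 free of overlap, Cd4, against 15.4% of all genes. Its median was 0.31 beside 0.0019, and against control set 1 in place of set 2 Cd4 went from 0.60 to 0.11 and Ptprc from 0.56 to 0.06. Control set 2 against set 1 compares mice of the same genotype and state, and the log2 FCs of the 4 genes there were -0.48 for Cd4 (SE 0.23), -0.49 for Ptprc (SE 0.28), -0.13 for Itgae (SE 0.18) and 0.23 for Thy1 (SE 0.15). It had 0 called by each tool (0.0644% of all genes by edgeR), 0 at an unadjusted p under 0.05 (17.2% of all genes), 0 free of overlap against 21.4% of all genes, and a median of -0.31 beside -0.0033. These 8 comparisons share libraries with one another, so they do not give separate evidence.

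Listed genes count as measured if they were kept after the authors' abundance filter, here and for the lists below. Those left in a list are thus the ones abundant enough in whole colon, and several are also made by other cells. The genes of T cell receptor signalling and T cell identity had 7 of 26 listed genes measured, 3 of them in all tables. Over both genotypes AOM/DSS took 0 of these 3 past the threshold with edgeR and 0 with DESeq2, 2 had an unadjusted p under 0.05, and the median was 0.12. Bcl11b, a transcription factor needed for T cell identity and also made in neurons and skin, had 25.3, 33.3 and 33.0 CPM in control set 1, 28.2, 32.2 and 38.8 in control set 2, 24.4, 27.5 and 34.2 in untreated Irf1-/-, 21.7, 19.998 and 21.4 in treated B6, and 24.3, 25.3 and 26.6 in treated Irf1-/-. Its treated B6 mice were below all other mice. The AOM/DSS difference was -0.39 (SE 0.09, edgeR adjusted p = 0.00776), under the minimum FC. Fyb, an adaptor of T cells and myeloid cells, had 0.45 (SE 0.12, adjusted p = 0.0118), and Rhoh, a small GTPase of blood cells, had 0.12 (SE 0.15, adjusted p = 0.585). By genotype over both states 0 of 3 passed with edgeR and 0 with DESeq2, 0 had an unadjusted p under 0.05, and the median was 0.17. In treated against untreated Irf1-/- 6 genes were tested, with 0 called by edgeR and 1, Lcp2, by DESeq2. Lcp2 had 4.93, 5.69 and 4.94 CPM in untreated and 9.35, 10.4 and 6.87 in treated Irf1-/- mice. Its untreated values lay near the authors' filter, so it was kept partly through the treated mice. An unadjusted p under 0.05 was found there for 2 of the 6, beside 18.6% of all genes.

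Cytotoxic and intraepithelial lymphocyte genes had 7 of 29 measured, 6 of them in all tables. AOM/DSS over both genotypes and genotype over both states each took 0 of 6 past the threshold with edgeR and 0 with DESeq2, with 3 and 2 at an unadjusted p under 0.05 and medians of 0.061 and 0.086. Cd8b1, the beta chain of the CD8 co-receptor, had 11.2, 11.5 and 11.4 CPM in control set 1, 13.7, 13.7 and 10.6 in control set 2, 14.4, 13.2 and 13.8 in untreated Irf1-/-, 11.6, 11.6 and 8.88 in treated B6, and 9.08, 10.7 and 10.3 in treated Irf1-/-. In Irf1-/- every treated mouse was below every untreated mouse, the reverse of Cd4 in the same animals. Between these groups 25.1% of all genes did not overlap. Over all libraries Cd8b1 had a Pearson r of -0.19 with Ptprc and -0.48 with Cd4. With group means removed these were 0.25 and 0.055. Its level is that of 1 gene and not of a cell count. The AOM/DSS difference of Cd8b1 over both genotypes was -0.31 (SE 0.09, edgeR adjusted p = 0.016). The aryl hydrocarbon receptor gene Ahr, needed to keep intraepithelial lymphocytes in place and also made by other cells, had 0.16 for AOM/DSS (SE 0.06, adjusted p = 0.0784) and 0.19 for genotype (SE 0.06, adjusted p = 0.0604). Itga1, an integrin chain that is abundant in smooth muscle, was the most abundant of the list at 146 CPM on average.

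Itgb7, the beta chain that pairs with Itgae, had 16.2, 10.97 and 6.25 CPM in control set 1, 6.73, 11.95 and 5.45 in control set 2, 7.33, 8.32 and 7.59 in untreated Irf1-/-, 11.8, 18.7 and 16.2 in treated B6, and 11.1, 9.74 and 7.54 in treated Irf1-/-. Like Itgae, it was lower in all treated Irf1-/- mice than in all treated B6 mice, by -0.73 (SE 0.21, edgeR adjusted p = 0.0975), short of the threshold. Untreated B6 mice alone spanned 5.45 to 16.2 CPM. Of the gamma delta T cell list 1 of 7 genes was measured, Sox13, a transcription factor also made outside T cells, with 0.07 for AOM/DSS (SE 0.08, edgeR adjusted p = 0.583) and -0.20 for genotype (SE 0.08, adjusted p = 0.147).

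Helper and regulatory T cell genes had 7 of the 20 reported on measured, 5 of them in all tables. Over both genotypes these 5 had negative log2 FCs with AOM/DSS, opposite to Cd4, and 1 passed the threshold, with a median of -0.401. That gene was Il2ra, the alpha chain of the interleukin 2 receptor, high on regulatory and activated T cells. It had 32.6, 28.9 and 32.2 CPM in control set 1, 48.8, 40.4 and 37.1 in control set 2, 47.6, 41.9 and 41.7 in untreated Irf1-/-, 25.4, 23.8 and 22.9 in treated B6, and 23.7, 32.6 and 29.4 in treated Irf1-/-. All treated B6 mice were below every untreated mouse, and treated Irf1-/- mice were below every untreated Irf1-/- mouse. Over all libraries its log2 CPM had a Pearson r of -0.28 with Ptprc and -0.52 with Cd4. With group means removed these were -0.025 and -0.043. Which cells of the colon carried this RNA was not tested. Il2ra fell by 0.60 on the log2 scale (SE 0.08, edgeR adjusted p = 0.00023), close to the minimum FC. Its FC came under 1.5 with control set 1 alone (-0.50), with log2 Xist as a covariate (-0.52), after a GC correction (-0.52) and without the 3 libraries low in Xist (-0.57). The same happened without mouse 1 of control set 2 (-0.57), of untreated Irf1-/- (-0.57) or of treated Irf1-/- (-0.55), and without mouse 3 of treated B6 (-0.58), while the adjusted p stayed between 0.000309 and 0.00106 in these leave-outs.

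Lag3 and Tigit, inhibitory receptors of activated T cells, had AOM/DSS differences of -0.40 (SE 0.08, edgeR adjusted p = 0.00312) and -0.40 (SE 0.10, adjusted p = 0.00872), both under the minimum FC. By genotype over both states edgeR called 0 of 5 helper and regulatory genes and DESeq2 0, 3 had an unadjusted p under 0.05, and the median was 0.26. Ikzf2, a transcription factor of regulatory T cells and the most abundant reported gene of the list, had -0.02 for AOM/DSS (SE 0.10, adjusted p = 0.913) and -0.02 for genotype (SE 0.10, adjusted p = 0.912). Its means were 41.5 CPM in control set 1, 44.8 in control set 2 and 33.1 in treated B6. In Irf1-/- they were 33.0 untreated and 41.9 treated, the opposite direction. Neither separate response of Ikzf2, nor the difference between them, was called by edgeR or DESeq2.

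**Figure D2:**
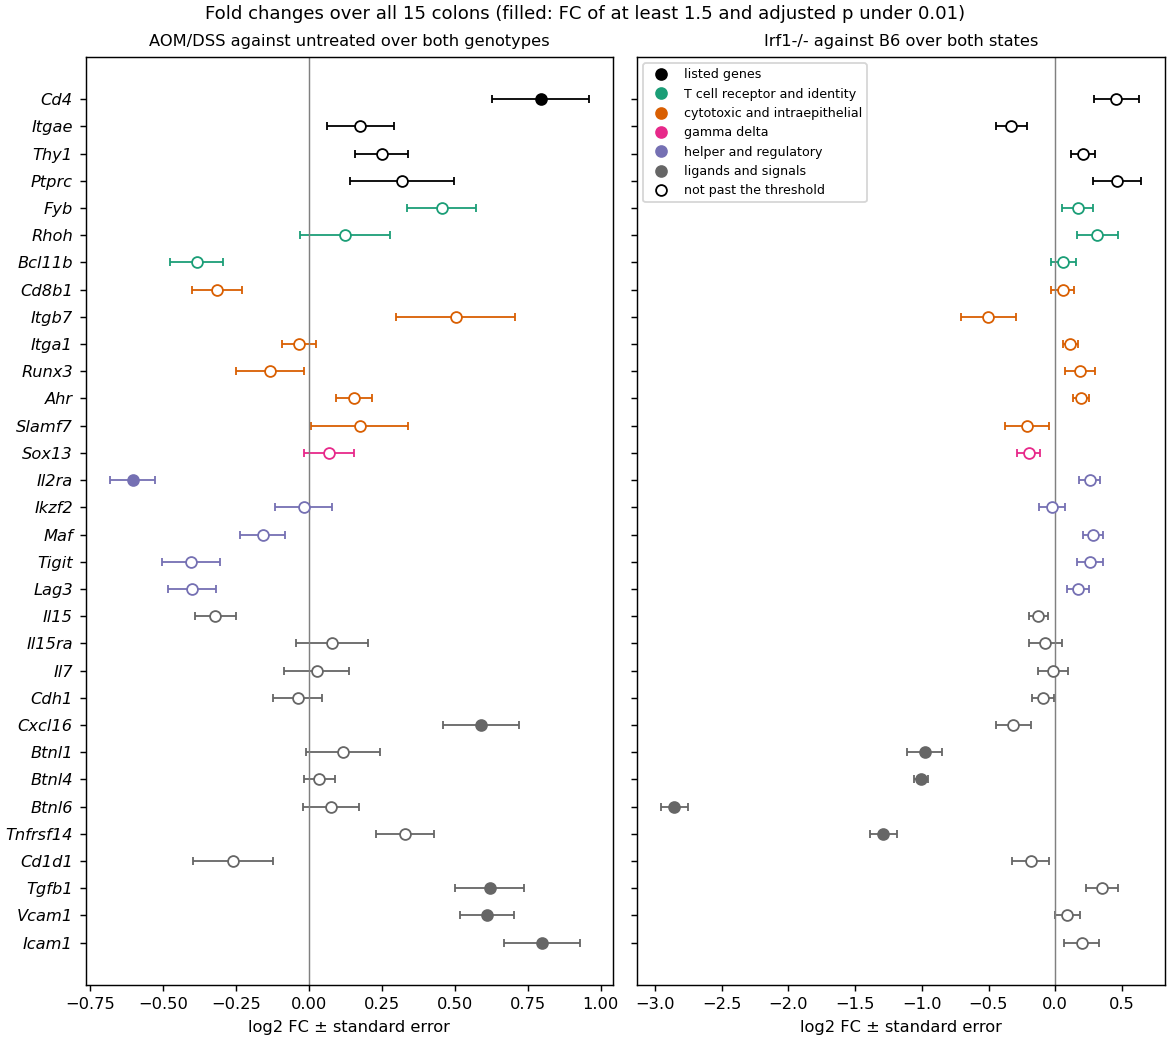
Log2 FC ± standard error of the reported genes of 6 lists, for AOM/DSS over both genotypes (left) and Irf1-/- against B6 over both states (right), from 15 colons each. Filled points passed an FC of 1.5 and an adjusted p of 0.01: Cd4 at 0.79 and Il2ra at -0.60 lie on opposite sides for AOM/DSS, and Btnl6 at -2.85 lies farthest from 0 for genotype.

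Ligands and signals that draw in or keep intraepithelial lymphocytes had 14 of 20 genes measured, 13 in all tables. With AOM/DSS over both genotypes 4 of 13 rose and 0 fell past the threshold, beside 1.64% of all genes called, and the median was 0.079. Icam1, the ligand of the leukocyte integrin LFA-1, had 13.8, 13.3 and 9.94 CPM in control set 1, 10.4, 13.8 and 9.82 in control set 2, 12.7, 15.1 and 11.2 in untreated Irf1-/-, 14.7, 24.2 and 20.2 in treated B6, and 23.7, 27.8 and 19.3 in treated Irf1-/-. Except for mouse 1 of treated B6, the treated mice were above all untreated mice, and that same mouse was low in Cd4. Icam1 rose by 0.80 (SE 0.13, edgeR adjusted p = 0.000822), a call kept under every alternative and leave-out run. Vcam1, an adhesion ligand of the integrins alpha 4 beta 1 and alpha 4 beta 7, had 23.0, 22.4 and 16.5 CPM in control set 1, 15.9, 19.7 and 17.3 in control set 2, 15.2, 18.6 and 17.9 in untreated Irf1-/-, 20.9, 29.6 and 23.7 in treated B6, and 30.8, 31.8 and 30.3 in treated Irf1-/-. The treated Irf1-/- mice were the 3 highest of all 15. Vcam1 rose by 0.61 over both genotypes (SE 0.09, adjusted p = 0.000605). In Irf1-/- alone it rose by 0.85 (SE 0.10, adjusted p = 0.00713), and the difference between the responses was 0.58 (SE 0.20, adjusted p = 0.187), or 0.35 when B6 was set against control set 2 (adjusted p = 0.377).

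The call of Vcam1 over both genotypes was lost, through its FC, without mouse 3 of control set 1 (0.58), mouse 1 of untreated Irf1-/- (0.57) or mouse 2 of treated B6 (0.54), with control set 1 alone (0.55) and with log2 Xist as a covariate (0.55). Its call in Irf1-/- alone was lost without any of the untreated Irf1-/- mice (edgeR adjusted p = 0.0404, 0.0406 and 0.0511) and without mouse 2 (0.0309) or mouse 3 (0.0120) of the treated ones, with a minimum of 10 CPM (0.0124) and with log2 Xist as a covariate (0.0164). These losses came through the adjusted p, with log2 FCs of 0.76 to 0.91. Cxcl16, the ligand of CXCR6, and Tgfb1, a cytokine that induces Itgae, rose by 0.59 (SE 0.13, adjusted p = 0.00492) and 0.62 (SE 0.12, adjusted p = 0.00222). Both calls sat near the threshold. Without the 3 libraries low in Xist Cxcl16 had 0.57 (adjusted p = 0.0156) and Tgfb1 had 0.68 (adjusted p = 0.0118), and with log2 Xist as a covariate they had 0.497 (adjusted p = 0.0526) and 0.66 (adjusted p = 0.0133). The Tgfb1 call was lost without mouse 2 or 3 of untreated Irf1-/- or mouse 3 of treated Irf1-/- (0.57 to 0.58), after a GC correction (0.57), all through its FC, and with control set 1 alone (0.54, adjusted p = 0.0106). That of Cxcl16 was lost without mouse 3 of either control set, mouse 1 or 3 of untreated Irf1-/-, mouse 2 or 3 of treated B6, or mouse 1 or 3 of treated Irf1-/- (0.49 to 0.60, adjusted p from 0.00564 to 0.0172), and with control set 1 alone (0.55, adjusted p = 0.0228). Interleukin 15 itself (Il15) was -0.32 (SE 0.07, adjusted p = 0.005), under the minimum FC.

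By genotype 4 of 13 fell and 0 rose past the threshold in Irf1-/- over both states, beside 0.889% of all genes called, with a median of -0.13. This list was chosen with earlier results of these data known, and 3 of the 4 are near relatives. The share beside it is thus no test of the list. Tnfrsf14 and the butyrophilin-like genes Btnl1, Btnl4 and Btnl6 fell, which are not the genes that rose with AOM/DSS. The 3 butyrophilin-like genes, whose sequences are near relatives so that reads may be shared, had -0.98 (SE 0.13, edgeR adjusted p = 0.000243), -1.01 (SE 0.06, adjusted p = 1.2e-08) and -2.85 (SE 0.10, adjusted p = 7.57e-11). Btnl1 depended on the control set, with means of 22.7 CPM in set 1, 13.7 in set 2 and 12.2 in untreated Irf1-/-. Its untreated Irf1-/- mice overlapped those of set 2. Over the alternatives its genotype log2 FC ran from -1.16 to -0.80, and the call was kept. Tnfrsf14 (HVEM), an epithelial ligand of the lymphocyte receptors CD160 and BTLA, had 21.1, 21.1 and 16.6 CPM in control set 1, 18.1, 16.6 and 12.3 in control set 2, 21.2, 23.8 and 24.8 in treated B6, 7.47, 7.47 and 7.81 in untreated Irf1-/-, and 7.67, 8.90 and 10.5 in treated Irf1-/-. Every Irf1-/- mouse was below every B6 mouse, in either state. It fell by 1.29 over both states (SE 0.10, adjusted p = 8.45e-07), a call kept in all alternatives and leave-outs run, and its AOM/DSS difference was 0.33 (SE 0.10, adjusted p = 0.0262). The 4 measured lymphocyte genes did not show this split by genotype.

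Like Tnfrsf14, Btnl4 and Btnl6 had every Irf1-/- mouse below every B6 mouse, Btnl6 with the larger log2 FC. The 250 bases upstream of the starts were searched for a set of letters, and those of Tnfrsf14 are shown because they hold it, a choice made after the search. They come from RefSeq on build GRCm38.p6 at chr4:154928078-154928327, minus strand. The letters searched, on both strands, were GAAA, then any 2 bases, then GAAA again, a core that interferon regulatory factors are known to bind. Capitals mark the match, which lies on the opposite strand at 64 to 55 bases before the start.
Tnfrsf14: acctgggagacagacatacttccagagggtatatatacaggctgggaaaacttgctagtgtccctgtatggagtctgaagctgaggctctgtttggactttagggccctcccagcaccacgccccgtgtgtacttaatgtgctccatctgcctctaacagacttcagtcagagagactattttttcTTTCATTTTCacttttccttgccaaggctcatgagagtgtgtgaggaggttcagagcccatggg
Of 32851 such windows, 978 (2.98%) hold these letters. Of the 4 lymphocyte genes only Ptprc was matched, with 2 starts and 0 matches, and of the ligand list 8 genes were matched and only Tnfrsf14 held the letters, while Btnl1, Btnl4 and Btnl6 had 0 matches. Among the genes of other lists searched, Ccl19, a chemokine of lymphoid follicles, held them. A match is a description of these letters and not a bound site.

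Markers of other blood cells were followed beside the 4 genes, since Ptprc and Cd4 are not limited to T cells. For B cells and plasma cells 7 of the 12 genes reported on were measured, 6 in all tables, none at 0, with Igj the most abundant at 348 CPM on average. Summed over the 6 genes the level was 688, 635 and 604 CPM in control set 1, 239.7, 269 and 258 in control set 2, 357, 435 and 306 in untreated Irf1-/-, 401, 659 and 362 in treated B6, and 409, 329 and 211 in treated Irf1-/-. Control set 1 stood apart from set 2, mostly through Igj, the joining chain of secreted antibodies, which was lower in control set 2 by -1.39 (SE 0.08, edgeR adjusted p = 7.44e-05), a call lost with all 15 libraries in 1 fit (-1.39, adjusted p = 0.0321). AOM/DSS took 0 of 6 past the threshold over both genotypes with edgeR and 0 with DESeq2, 0 had an unadjusted p under 0.05, and the median was 0.13. By genotype over both states 0 of 6 passed with edgeR and 0 with DESeq2, 3 had an unadjusted p under 0.05, and the median was 0.35. In treated Irf1-/- against treated B6, 4 of 7 had an unadjusted p under 0.05, beside 22% of all genes. Their median there was 0.22, edgeR called 0, and DESeq2 called Ms4a1, with means of 14.9 CPM in treated Irf1-/- and 6.69 in treated B6.

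Lymphoid follicle genes had 7 of 9 measured, 5 in all tables, none at 0, with Fcer2a the most abundant at 13.6 CPM. Their sum was 92.9, 45.0 and 24.2 CPM in control set 1, 35.7, 55.8 and 20.9 in control set 2, 40.1, 46.9 and 56.7 in untreated Irf1-/-, 40.4, 46.2 and 60.1 in treated B6, and 62.8, 71.3 and 59.8 in treated Irf1-/-. Mouse 1 of control set 1 was the highest of all here as it was the highest untreated mouse in Ptprc. AOM/DSS and genotype each took 0 of 5 past the threshold with edgeR and 0 with DESeq2, with 0 at an unadjusted p under 0.05 in either and medians of 0.35 and 0.30. In treated against untreated Irf1-/-, 7 of 7 were positive, with a median of 0.56 and 4 at that p (18.6% of all genes). Other comparisons tested 5 of these genes. Those added here have counts in the Irf1-/- groups only and may have passed the authors' filter through the treated mice. The 7 are thus not the same set as the 5 that follow. Treated Irf1-/- against treated B6 had 5 of 5 positive, a median of 0.56 and 2 at that p (22% of all genes). The B6 response had 2 of 5 positive, a median of -0.026 and 0 at that p (29.5% of all genes). Both tools called 0 in each of these. The part of follicle and B cell content in the Ptprc values was not tested.

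Macrophage, dendritic cell and neutrophil genes had 16 of 18 measured, 14 in all tables, none at 0, with Lyz2 the most abundant at 198 CPM. Their sum was 699, 719 and 547 CPM in control set 1, 560, 586 and 533 in control set 2, 476, 573 and 548 in untreated Irf1-/-, 722, 955 and 786 in treated B6, and 716, 732 and 802 in treated Irf1-/-. Treated mice were above untreated mice, except that mouse 2 of control set 1 was just above mouse 1 of treated Irf1-/-. With AOM/DSS 13 of 14 log2 FCs were positive, and the median was 0.50. An unadjusted p under 0.05 was found for 13, beside 38.4% of all genes. With edgeR 3 genes rose past the threshold, beside 1.64% of all genes called. DESeq2 called 4, with Cd68 added, a count given without that tool's share of all genes. The 3 called by edgeR were Tyrobp (0.74, edgeR adjusted p = 0.000692), C1qb (0.66, adjusted p = 0.000915) and Lyz2 (0.60, adjusted p = 0.00196). The Lyz2 call was lost through its FC without mouse 3 of either control set, mouse 1 of untreated Irf1-/-, mouse 2 of treated B6 or mouse 3 of treated Irf1-/- (0.52 to 0.58), and with control set 1 alone through both its FC and its adjusted p (0.51, adjusted p = 0.0145). With log2 Xist as a covariate Tyrobp had 0.69 (adjusted p = 0.0103) and Lyz2 0.57 (adjusted p = 0.0195), and a GC correction brought C1qb to 0.56, under the minimum FC. By genotype 0 of 14 passed with edgeR and 0 with DESeq2, 7 had an unadjusted p under 0.05, and the median was -0.19. Their part in the rise of Cd4 was not tested.

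Of natural killer and innate lymphoid genes 1 of 10 was measured, Il1rl1, the interleukin 33 receptor, which also marks regulatory T cells and mast cells. It had 7.31, 5.11 and 6.83 CPM in control set 1, 7.40, 7.51 and 6.96 in control set 2, 7.78, 9.74 and 7.90 in untreated Irf1-/-, 8.92, 13.7 and 7.52 in treated B6, and 20.8, 13.3 and 11.6 in treated Irf1-/-. The values were highest in treated Irf1-/- and in mouse 2 of treated B6, and Il1rl1 rose with AOM/DSS by 0.70 (SE 0.15, edgeR adjusted p = 0.00458). That call ended without the 3 libraries low in Xist (0.35, adjusted p = 0.0673) and without mouse 1 or 3 of untreated Irf1-/- (0.67 and 0.68, both with an adjusted p of 0.0149), mouse 2 of treated B6 (0.56, adjusted p = 0.0116) or mouse 1 of treated Irf1-/- (0.55, adjusted p = 0.0125). It was also lost with control set 1 alone (0.75, adjusted p = 0.0150) or set 2 alone (0.65, adjusted p = 0.0141) and with log2 Xist as a covariate (0.38, adjusted p = 0.117).

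Of mast cell genes 3 of 9 were measured, 1 in all tables, Kit, with 0.27 for AOM/DSS (SE 0.04, edgeR adjusted p = 0.000888), under the minimum FC. Mcpt1 and Mcpt2, proteases of mucosal mast cells, were analysed here in the Irf1-/- groups only. Mcpt1 had 2.27, 5.47 and 3.49 CPM in untreated and 35.5, 15.2 and 13.8 in treated Irf1-/- mice, and Mcpt2 had 1.29, 2.27 and 1.19 and then 17.9, 5.43 and 6.83. Every treated mouse was above every untreated mouse. Untreated Mcpt2 was under the authors' filter of 5 CPM in every mouse, and untreated Mcpt1 was above it in only 1 (5.47). Neither gene would have been kept on its untreated mice alone. The direction and the lack of overlap of both are thus not independent of that filter. The log2 FCs were 2.53 (SE 0.42, adjusted p = 0.0273) and 2.66 (SE 0.49, adjusted p = 0.0342). Neither passed with edgeR, while DESeq2 (adjusted p = 0.000552 and 0.000949) and the edgeR exact test called both. Mouse 1 of treated Irf1-/-, low in Xist, was the highest in both, and without it the values were 1.96 (adjusted p = 0.014) and 1.95 (adjusted p = 0.0128).

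In colon epithelium, where Krt8 was the most abundant gene, 1 of 9 rose and 1 fell past the threshold with AOM/DSS, 4 had an unadjusted p under 0.05, and the median was 0.039. These were Muc2, the main mucin of goblet cells (0.79, adjusted p = 0.00447), and Car1, a carbonic anhydrase of surface colonocytes (-0.76, adjusted p = 0.00269). The Muc2 call was lost without any of the untreated Irf1-/- mice, mouse 3 of treated B6 or mouse 2 of treated Irf1-/- (0.77 to 0.799, adjusted p from 0.0102 to 0.0141), and that of Car1 without the 3 libraries low in Xist (-0.47, adjusted p = 0.0351). With log2 Xist as a covariate Muc2 kept its log2 FC (0.79, adjusted p = 0.0293) and Car1 had -0.53 (adjusted p = 0.0382). Muc2 had 0.62 with control set 2 alone (adjusted p = 0.0189), 0.77 with the control sets pooled (adjusted p = 0.0138) and 0.75 after a GC correction (adjusted p = 0.0114). By genotype edgeR and DESeq2 called 0 of 9, with 6 at an unadjusted p under 0.05 and a median of -0.13. Smooth muscle had 6 of 6 measured, with 0 called by edgeR and DESeq2, 0 at an unadjusted p under 0.05 and medians of 0.038 for AOM/DSS and -0.025 for genotype. Stroma, nerve and endothelium had 8 of 9 measured, 7 in all tables, with Col3a1 the most abundant. Both tools called 0 of 7 for AOM/DSS, 3 had an unadjusted p under 0.05, and the median was 0.18, while for genotype these were 0, 1 and 0.0072.

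The genes whose log2 CPM followed each lymphocyte gene most closely over the 15 libraries are given as a description, with Pearson r and then r after the group means were removed. For Ptprc they were Dock10 (0.96 and 0.95), Rasgrp1 (0.95 and 0.96), Pyhin1 (0.93 and 0.90), Cxcl13 (0.93 and 0.92) and Gimap6 (0.93 and 0.96), so that the likeness held within groups. Over marker lists, the median r with Ptprc was 0.86 for B cell and plasma cell genes and 0.83 for follicle genes, against 0.32 for macrophage, dendritic cell and neutrophil genes. Among the T cell lists it was 0.49 for cytotoxic and intraepithelial genes and -0.092 for helper and regulatory genes, and of the 3 receptor and identity genes Fyb had 0.72, Rhoh 0.696 and Bcl11b -0.46. For Cd4 they were Fgf10 (0.92 and 0.85), Il2rg (0.91 and 0.79), Fmnl3 (0.91 and 0.68), Ssfa2 (0.91 and 0.63) and Icam1 (0.91 and 0.80), and its median r was 0.66 for B cell and plasma cell genes, 0.63 for macrophage, dendritic cell and neutrophil genes, 0.59 for follicle genes, 0.33 for cytotoxic and intraepithelial genes and -0.39 for helper and regulatory genes, while Fyb had 0.82, Rhoh 0.599 and Bcl11b -0.58. With group means removed, the Cd4 medians were 0.65 for macrophage, dendritic cell and neutrophil genes and 0.57 for B cell and plasma cell genes. That order was the reverse of the one over all libraries. For follicle, cytotoxic and intraepithelial, and helper and regulatory genes they were 0.52, 0.33 and -0.051. Il2rg encodes the common gamma chain of the receptors for interleukins 2, 7 and 15.

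For Itgae the closest were Fchsd1 (0.88 and 0.87), Itgb7 (0.85 and 0.81), Alg14 (0.84 and 0.77), and the nonclassical class I genes H2-T10 (0.82 and 0.73) and H2-M3 (0.81 and 0.71). Its partner chain Itgb7 thus ranked 2 of all genes over these 15 libraries. Itgb7 also had 0.52 and 0.94 with Ptprc and 0.46 and 0.66 with Cd4. After removal of group means it was thus closer to Ptprc than to Itgae. For Thy1 the values were lower, with Fam43a (0.82 and 0.62), S100a14 (0.80 and 0.53), Ltbp4 (0.79 and 0.69), Ube2o (0.79 and 0.61) and Cbfa2t3 (0.79 and 0.43). Among the 4 genes themselves, r was 0.82 for Cd4 and Ptprc, 0.61 for Cd4 and Thy1, 0.38 for Thy1 and Ptprc, 0.22 for Itgae and Ptprc, 0.13 for Cd4 and Itgae and -0.18 for Itgae and Thy1. After removal of group means Itgae and Ptprc had 0.75 and Cd4 and Ptprc 0.70, so Itgae and Ptprc went together within groups but hardly over all 15 libraries.

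**Figure D3:**
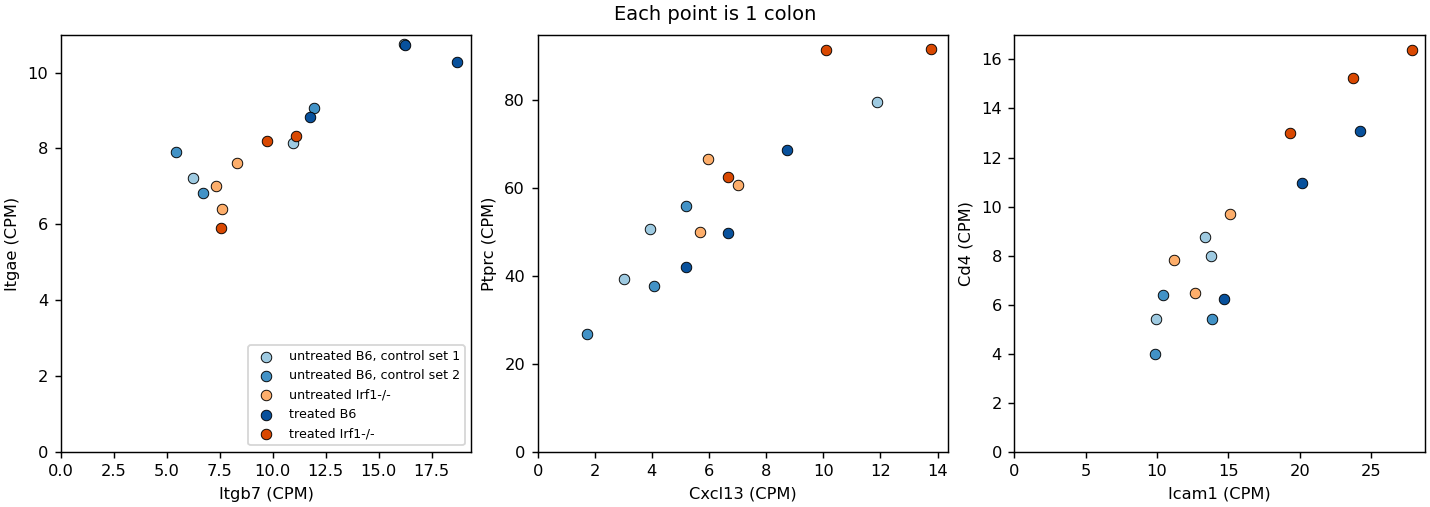
Levels in each of 15 colons (CPM, axes from 0), with Itgae against Itgb7 on the left, Ptprc against Cxcl13, a chemokine of lymphoid follicles, in the middle and Cd4 against Icam1 on the right, coloured by group. Pearson r on the log2 scale was 0.85, 0.93 and 0.91, and in the middle panel untreated B6 mice reach from 1.74 to 11.9 CPM of Cxcl13.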

How the data were processed

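The authors deposited raw read counts per gene in 3 tables, from rRNA-depleted stranded libraries of distal colon. These hold only genes past the authors' filter, given in the paper as 5 CPM in at least 3 samples. The submitters' notes name mm9, TopHat2 2.0.9, Bowtie 1.0.0, featureCounts and edgeR. Their deposited CPM, FC and p columns were not used. Counts were joined by gene symbol and fitted across all genes with edgeR 4.0.16 in R 4.3.3 (TMM, quasi-likelihood), with Benjamini-Hochberg adjustment over all genes and groups of 3 mice. DESeq2 1.42.0 and the edgeR exact test were alternatives, the latter for the 5 pairwise comparisons, and limma 3.58.1 served edgeR. The fit was tested on simulated data for size, sign and false calls; a minimum of recovered genes was dropped after the difference between the responses missed it with edgeR and DESeq2. Members and lists were chosen with earlier results of these data known. Named genes were all members, Irf1, up to 4 genes per list and comparison past the threshold, else the 3 with the smallest p, and the most abundant marker. Il15, Lag3, Tigit, Cd68, Mrc1, Il7, Mcpt1, Mcpt2, Ms4a1 and Lcp2 fall outside this rule and were named after their values were seen. From 2 lists 1 gene each is not reported here, and the counts, medians and sums of those lists leave it out, a change made after the data were seen. Likeness to the CD3 genes was planned; it was replaced, after the data were seen, by likeness to each member (5 genes each). Transcript length and GC come from GENCODE M21, upstream sequence from RefSeq GRCm38.p6, and no coordinates were converted. Alternatives were RLE scaling, a minimum of 10 CPM, a GC correction, a replicate block, other control sets, and each library left out.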

Additional observations from a re-analysis of the deposited data

Results flagged for a closer look

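In 3 of 83 genes of the lists tested in both genotypes, beside 1.56% of all 12483 such genes, all treated B6 mice lay on one side of the untreated B6 mice of control set 1 and all treated Irf1-/- mice on the other side of theirs. Il7, a cytokine that keeps lymphocytes alive, had a B6 response of -0.476 (log2 FC) and an Irf1-/- response of 0.34, and the edgeR test of the difference gave 0.82 (SE 0.22, adjusted p = 0.112). Mrc1, the mannose receptor of macrophages, had -0.117 and 0.38, with a difference of 0.50 (SE 0.13, adjusted p = 0.112). Krt8, a keratin of the epithelium, had 0.182 and -0.17, with a difference of -0.34 (SE 0.11, adjusted p = 0.153). None of these 3 differences passed the threshold with edgeR. The untreated B6 mice of control set 2 overlapped the treated B6 mice in all 3 genes. Against that set the B6 responses were -0.07 for Il7, 0.063 for Mrc1, where the direction turned, and 0.154 for Krt8, and the differences were 0.42, 0.33 and -0.31 (adjusted p = 0.43, 0.286 and 0.275).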

How the results depend on the processing

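Of the counts of Cd4, Itgae, Thy1 and Ptprc past the threshold, those of 6 comparisons stayed at 0 under all alternatives and leave-outs run. For treated against untreated Irf1-/- the count went from 0 to 1 (Cd4) with DESeq2, with the edgeR exact test and at an adjusted p under 0.05 with no minimum FC, and was 0 to 0 over the leave-outs. For AOM/DSS over both genotypes it went from 1 to 0 with a minimum mean of 10 CPM, which removes Cd4 (9.12 CPM), with control set 1 only and, chosen after seeing the data, with log2 Xist as a covariate, and was 0 to 1 over the leave-outs. The cause was not tested for the control set and the covariate. With a replicate block Cd4 had 0.79 (edgeR adjusted p = 0.00306). The block changed no call of the 4 genes, and same-numbered mice of different groups did not pair (30 pairs, r from -0.26 to 0.25, median -0.0086, 8 over 0.1). Leaving out the 3 libraries low in Xist, also chosen after seeing the data, changed none of the 4 genes' calls. Igj, untreated Irf1-/- against B6, reversed from 0.44 with control set 2 to -0.95 with set 1, and the cause was not tested. Over all genes, the counts past the threshold, or past the looser one named next, ranged, by comparison, from 41 to 157 (51 as reported; untreated genotypes), 0 to 1070 (6; B6 response), 8 to 301 (32; Irf1-/- response), 7 to 270 (48; treated genotypes), 6 to 161 (8; control sets), 0 to 75 (2; difference of responses), 100 to 1304 (110; genotype) and 91 to 3128 (203; AOM/DSS), and over the leave-outs from 26 to 64, 0 to 152, 0 to 61, 17 to 48, 3 to 53, 1 to 9, 99 to 134 and 158 to 273. The highs of 157, 1070, 301, 1304 and 3128 are counts at an adjusted p under 0.05 with no minimum FC. They come from that looser threshold and not from other processing. At the usual threshold, 270 and 75 came from DESeq2 and 161 from the edgeR exact test. Cd4, Itgae and Thy1 had 89 to 385 reads per library.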
